A study of Homo sapiens with 5 samples.

Results

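The genes described here encode transcription factors of the HOX, PAX, SOX, FOX, LHX, sine oculis homeobox, TBX, GATA, NKX, IRX, DLX, POU, NEUROD and OTX families, together with MITF. They were taken by gene symbol from the deposited list of transcription start sites (TSSs), without use of measured values. The rule found 68 of the 9767 genes that had values in all 3 libraries, and each of the 68 had a single listed start. They comprised 15 FOX, 8 TBX, 6 HOX, 6 NKX, 5 PAX, 4 SOX, 4 LHX, 4 DLX, 4 POU, 4 NEUROD, 3 sine oculis homeobox genes (SIX2, SIX4 and SIX6) and 2 OTX genes, with GATA1, IRX3 and MITF as single members. POU2AF1, a coactivator of POU factors, POU5F1B, a retrogene copy of POU5F1, and FOXD4L5, which has near-identical copies elsewhere in the genome, matched by symbol and were kept.

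RNA polymerase II (RNAPII) had been mapped by ChIP-seq against its subunit RPB1 in untreated RPE1 cells, an immortalised line from human retinal pigment epithelium. The groups were CFAP20/CCNC-dKO (1 library), CFAP20-KO (1 library) and WT (3 libraries), and every line, WT included, carried iCas9 and the p53/puro double knockout named in the labels. CFAP20 is a protein first known from cilia, and CCNC encodes cyclin C of the Mediator kinase module. Only replicate 1 of each genotype was deposited around TSSs, so the genotypes were compared without replicates and without a test. The labels name a Bethyl RPB1 antibody for both knockouts and an Active Motif one for WT, so in comparisons with WT the antibody and the genotype cannot be told apart. The catalogue number they give for the WT antibody is also that of the spike-in antibody, so that entry may be an error. Chromatin input was 22 µg with 32.6 ng of spike-in for CFAP20/CCNC-dKO, and 28 µg with 40 ng for CFAP20-KO and WT. The labels do not say how many clones each line stands for.

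These transcription factors assign cell identity and position during embryonic development, each in a restricted set of tissues. In differentiated cells most of them are kept silent, and their promoters, often in CpG islands, are classical targets of Polycomb repression. OTX2 and MITF specify retinal pigment epithelium, PAX6 and SIX6 act in the developing eye, SOX9 in cartilage and neural crest, and HOX genes set position along the body axis. RNAPII commonly pauses just downstream of active starts, so its density there marks promoters in use.

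Bases -250 to -51 before the listed start are shown for 6 members, read from the hg38 genome 5′ to 3′ on the gene's strand, with every CG dinucleotide in capitals. FOXJ2 is shown as a promoter with high RNAPII that was lower in CFAP20/CCNC-dKO, NKX2-5 as one that was higher there, and OTX2 and MITF as the pigment epithelium factors. The stretch of MITF lies before an internal start of the gene, far from its main annotated start. TBX20 and TBX22 were occupied in no library and are shown as those with the highest and the lowest ratio of observed to expected CG dinucleotides over 250 bases among such members whose listed start lay within 50 bp of the main annotated (MANE) start.
FOXJ2, chr12:8032453-8032652, + strand: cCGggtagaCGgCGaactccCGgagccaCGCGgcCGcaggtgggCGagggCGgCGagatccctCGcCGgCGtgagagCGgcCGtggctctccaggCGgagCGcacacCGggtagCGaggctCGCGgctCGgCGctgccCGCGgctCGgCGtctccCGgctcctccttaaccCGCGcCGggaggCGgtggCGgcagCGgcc
NKX2-5, chr5:173235408-173235607, - strand: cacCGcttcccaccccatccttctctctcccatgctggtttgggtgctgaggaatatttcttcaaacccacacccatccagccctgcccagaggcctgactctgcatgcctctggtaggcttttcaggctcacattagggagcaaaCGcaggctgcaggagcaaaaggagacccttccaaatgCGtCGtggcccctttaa
OTX2, chr14:56810499-56810698, - strand: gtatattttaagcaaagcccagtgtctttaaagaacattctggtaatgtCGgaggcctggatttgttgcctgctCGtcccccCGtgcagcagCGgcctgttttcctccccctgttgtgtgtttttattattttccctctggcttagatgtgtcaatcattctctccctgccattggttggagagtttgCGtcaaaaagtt
MITF, chr3:69936353-69936552, + strand: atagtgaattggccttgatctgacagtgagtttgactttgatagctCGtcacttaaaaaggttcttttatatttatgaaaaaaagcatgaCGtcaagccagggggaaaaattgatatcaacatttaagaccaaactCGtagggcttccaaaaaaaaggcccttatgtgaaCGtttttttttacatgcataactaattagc
TBX20, chr7:35254198-35254397, - strand: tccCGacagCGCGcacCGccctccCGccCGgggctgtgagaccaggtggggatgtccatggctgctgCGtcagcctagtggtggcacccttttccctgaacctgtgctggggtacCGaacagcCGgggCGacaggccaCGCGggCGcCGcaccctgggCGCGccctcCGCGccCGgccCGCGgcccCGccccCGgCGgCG
TBX22, chrX:80014506-80014705, + strand: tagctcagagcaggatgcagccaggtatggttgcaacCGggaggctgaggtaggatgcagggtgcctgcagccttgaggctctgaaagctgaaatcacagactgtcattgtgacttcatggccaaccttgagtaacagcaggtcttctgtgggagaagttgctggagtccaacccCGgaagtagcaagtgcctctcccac
The printed stretch held 34 CG dinucleotides in FOXJ2, 25 in TBX20, 5 in OTX2, 4 in MITF, 4 in NKX2-5 and 2 in TBX22. On either strand, the TATA-box letters TATAAA stood in that of MITF, the CCAAT-box letters CCAAT in those of OTX2 and MITF, and the GC-box letters GGGCGG in those of FOXJ2 and TBX20. Over the 250 bases before each start, TATAAA was found in 7.35% of the members and 13.0% of all genes, CCAAT in 36.8% and 33.4%, and GGGCGG in 58.8% and 34.0%. These are matches of letters only.

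Every value in the TSS windows was a whole multiple of 1 step per library, and the windows together held the equivalent of 1175297 fragments in CFAP20/CCNC-dKO, 838532 in CFAP20-KO and 6611578 in WT. A median member promoter held 8.14, 5.90 and 41.7 of these in the same order, so single-gene values of the knockouts are imprecise. Isolated fragments averaged 321 bp for CFAP20/CCNC-dKO, 301 bp for CFAP20-KO and 148 bp for WT, which spreads coverage more widely in both knockouts. The intervals given below are exact 95% Clopper-Pearson intervals of a density ratio and cover counting error only. Of the pigment epithelium markers looked for, 5 of 12 were measured, and OTX2 was the only one with an occupied promoter in WT; RPE65, RLBP1 and LRAT, which serve the visual cycle, were at 0.484, 0.456 and 0.297 in CFAP20/CCNC-dKO, against 0.108, 0.304 and 0.356 in CFAP20-KO and 0.418, 0.387 and 0.340 in WT. Of 5 retinal neuron markers, the 4 measured, CRX and RCVRN among them, were occupied in no library, with summed densities of 1.39, 0.462 and 1.04 in CFAP20/CCNC-dKO, CFAP20-KO and WT. Mesenchymal COL1A1 was at 1.24, 1.16 and 0.837 and COL1A2 at 0.745, 0.271 and 0.338 in the same order, and the epithelial markers looked for were not measured.

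Most of these genes lay under the limit for an occupied promoter at their listed start in each library. Promoter density, the mean spike-in normalized coverage from -200 to 500 bp, was called occupied at 2 times the library's median density from 4500 to 2000 bp upstream, which set the limit at 0.709 in CFAP20/CCNC-dKO, 0.701 in CFAP20-KO and 0.702 in WT. In CFAP20/CCNC-dKO 17 of the 68 members (25%) were occupied, against 29.8% of all genes. In CFAP20-KO 23 members (33.8%) were occupied, against 35.0% of all genes. In WT 19 members (27.9%) were occupied, against 32.1% of all genes. The members were thus occupied about as often as any gene in each library. At the median, a member promoter stood at 0.411 (CFAP20/CCNC-dKO), 0.458 (CFAP20-KO) and 0.393 (WT), beside 0.428, 0.451 and 0.408 over all genes. Of the members, 14 were occupied in all 3 libraries and 41 in none, and the matching shares of all genes were not counted.

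**Figure D1:**
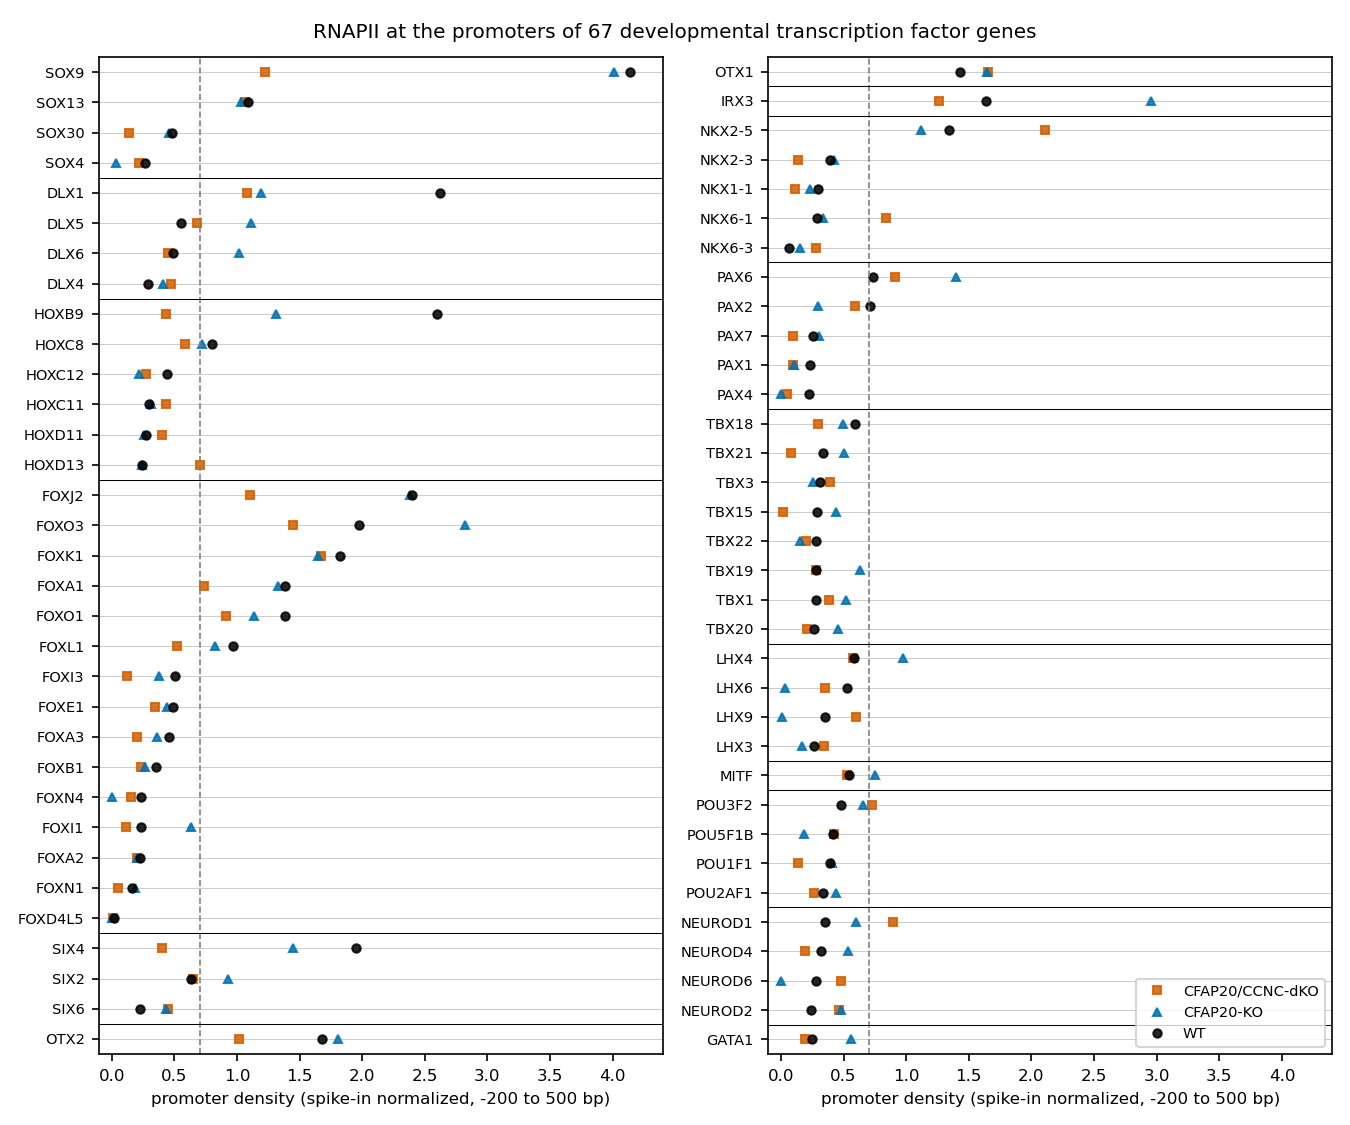
Promoter density of 67 of the 68 members in CFAP20/CCNC-dKO (squares), CFAP20-KO (triangles) and WT (circles), 1 library each, grouped by family between the horizontal lines. The dashed line is the WT limit for an occupied promoter, 0.702. Genes of several families lie to its right and the TBX genes all lie to its left.

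The occupied members came from some of the families and not from others. SOX9, the cartilage and neural crest factor, had the highest WT density of all members, with 1.23 in CFAP20/CCNC-dKO, 4.01 in CFAP20-KO and 4.14 in WT. Its WT value lay at percentile 99.1 of all genes. DLX1, a homeobox factor of forebrain and craniofacial development, had 1.08, 1.19 and 2.62 in the same order. Both lay above the limit in all 3 libraries.

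HOXB9 was at 0.435 in CFAP20/CCNC-dKO, 1.32 in CFAP20-KO and 2.59 in WT, so it was occupied in CFAP20-KO and WT and lay under the limit in CFAP20/CCNC-dKO. HOXC8 was at 0.582, 0.725 and 0.798 in the same order. HOXC11 and HOXC12, posterior genes of the same HOXC cluster, were at 0.437 and 0.277 in CFAP20/CCNC-dKO, against 0.315 and 0.219 in CFAP20-KO and 0.300 and 0.442 in WT. Neither of the 2 reached the limit in any library. HOXD11 and HOXD13, which pattern limbs, did not reach it either, though HOXD13 had 0.707 in CFAP20/CCNC-dKO, just under the limit there, against 0.240 in CFAP20-KO and 0.239 in WT. No HOXA gene was measured.

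Among forkhead genes 6 of 15 were occupied in WT. FOXJ2 had 1.10 in CFAP20/CCNC-dKO, 2.38 in CFAP20-KO and 2.40 in WT, and FOXO3, which acts downstream of insulin signalling, had 1.45, 2.82 and 1.97. FOXK1, a broadly expressed regulator of metabolism, had 1.67, 1.65 and 1.82, and FOXO1 0.913, 1.14 and 1.38. These 4 are known as broadly expressed forkhead genes, and all were occupied in every library. The pioneer factor FOXA1 had 0.734, 1.33 and 1.38. FOXL1 reached 0.525, 0.828 and 0.966, but its upstream density was higher still, with 0.933 in CFAP20/CCNC-dKO, 1.05 in CFAP20-KO and 1.14 in WT. The tissue-restricted FOXA2, FOXA3, FOXB1, FOXE1, FOXI1, FOXI3, FOXN1 and FOXN4 were occupied in no library, and FOXD4L5 was close to 0 in all 3, at 0.0141, 0 and 0.0184, with few reads over its whole window.

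Both OTX genes, homeobox factors of head and eye, were occupied at their listed starts in all 3 libraries. OTX2 had 1.01 in CFAP20/CCNC-dKO, 1.81 in CFAP20-KO and 1.68 in WT, and its paralog OTX1 had 1.65, 1.65 and 1.43. MITF, the master regulator of pigment cells, was at 0.523 in CFAP20/CCNC-dKO, 0.751 in CFAP20-KO and 0.540 in WT at its listed start, above the limit in CFAP20-KO alone. PAX6 had 0.907, 1.40 and 0.735, and SIX6, an eye and pituitary factor, had 0.453, 0.433 and 0.222. SIX4 was at 0.399, 1.44 and 1.95, and SIX2, of kidney progenitors, at 0.651, 0.929 and 0.634. IRX3, of the Iroquois homeobox class, had 1.26, 2.95 and 1.64.

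Among the NKX genes, NKX2-5, the cardiac homeobox gene, had 2.11 in CFAP20/CCNC-dKO, 1.12 in CFAP20-KO and 1.34 in WT, the highest member value in CFAP20/CCNC-dKO. NKX1-1, NKX2-3, NKX6-1 and NKX6-3 lay under the limit in WT. None of the 8 T-box genes, the 4 LHX genes, the 4 POU genes, the 4 NEUROD genes or GATA1, the erythroid factor, was occupied in WT. Within those families the highest WT values were 0.592 for TBX18, 0.583 for LHX4, 0.478 for POU3F2 and 0.354 for NEUROD1, a neuronal and islet factor, and GATA1 had 0.251. GATA1 was at 0.192 in CFAP20/CCNC-dKO, against 0.562 in CFAP20-KO.

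Across libraries, 14 of the 19 members occupied in WT were also occupied in CFAP20/CCNC-dKO and 18 of them in CFAP20-KO. The 5 that were under the limit in CFAP20/CCNC-dKO were HOXB9, SIX4, FOXL1, HOXC8 and PAX2. PAX2, a kidney and eye factor at 0.591 in CFAP20/CCNC-dKO, 0.294 in CFAP20-KO and 0.707 in WT, was the member under the limit in CFAP20-KO. PAX2 lies in a region where the flanks of all starts within 5 Mb stood 1.63, 1.68 and 1.67 times above the library's median in CFAP20/CCNC-dKO, CFAP20-KO and WT. Occupied in a knockout but not in WT were 8 members, namely SIX2, LHX4, DLX5, DLX6 and MITF in CFAP20-KO, and POU3F2, NEUROD1 and NKX6-1 in CFAP20/CCNC-dKO. These members were named after their values were seen, and several lie close to the limit. Such overlaps between libraries were not counted over all genes, so how usual these losses and gains are is not known.

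**Figure D2:**
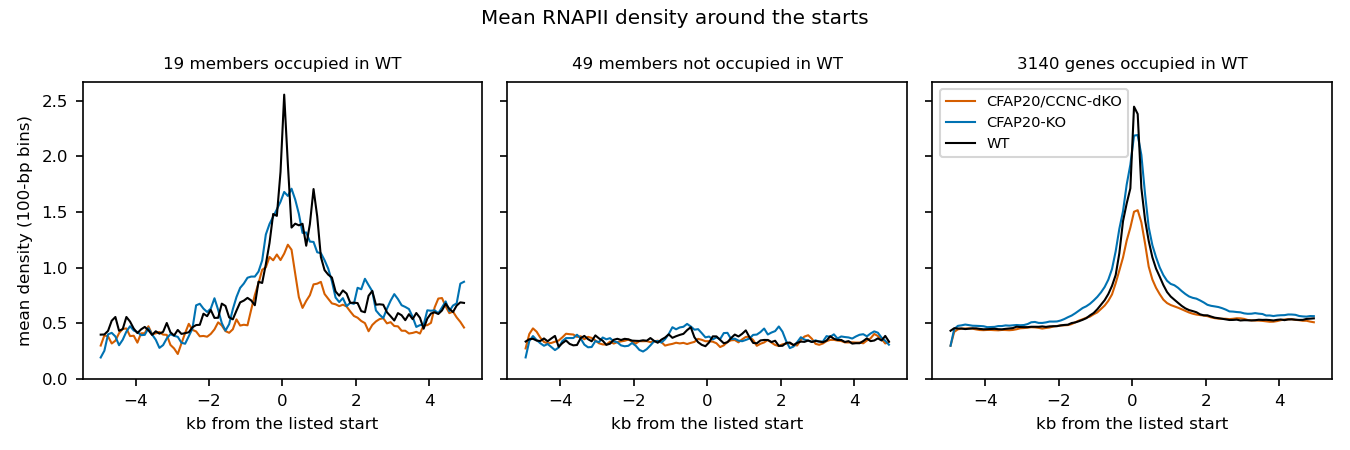
Mean RNAPII density in 100-bp bins against distance from the listed start for the 19 members occupied in WT, the 49 members not occupied in WT and the 3140 genes occupied in WT, in CFAP20/CCNC-dKO, CFAP20-KO and WT (1 library each). The occupied members peak at the start like other occupied genes, the second WT peak near 0.9 kb comes mostly from FOXO3, and the unoccupied members stay low in all 3 libraries with no peak at the start.

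Nascent transcription in WT was recorded at higher levels at most occupied members than at the median occupied gene. The deposited BrU-seq gene body value, the authors' own value for WT without an error or a stated scale, existed for 38 of the 68 members (55.9%) and for 64.5% of all genes. It existed for all 19 members occupied in WT, with a median of 7.91, and for 99.6% of all genes occupied in WT, with a median of 1.94. It existed for 19 of the 49 members not occupied in WT (38.8%), with a median of 0.145, and for 47.9% of all genes not occupied in WT, with a median of 0.0875. Among the members SOX9 had the highest BrU-seq value at 89.9, followed by HOXB9 at 43.8 and NKX2-5 at 33.5. Across the 38 members the Spearman correlation of WT promoter density with the BrU-seq value was 0.74, and across 6299 genes it was 0.70; these are correlations across genes of the same cell line, given as a description.

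Some occupied members had little nascent signal. FOXO1 was at 0.158 and PAX2 at 0.0449 in BrU-seq although their promoters passed the limit in WT. Conversely SOX4, an SRY-related factor of progenitor cells, had a BrU-seq value of 17.5 but a promoter density of 0.218 in CFAP20/CCNC-dKO, 0.0361 in CFAP20-KO and 0.270 in WT. Its listed start is not the annotated one: in GENCODE 44 the MANE start lies 982 bp further downstream. With the window placed there, SOX4 had 1.60, 3.84 and 1.89, and its highest density stood 990, 1150 and 1020 bp past the listed start in CFAP20/CCNC-dKO, CFAP20-KO and WT. The window at the listed start thus misses the peak of SOX4.

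The listed starts were otherwise mostly those of the annotation, with a GENCODE start of the same gene within 250 bp for 62 members and the MANE start over 1000 bp away for 10. FOXO3 had its MANE start 1082 bp downstream, where its density was 2.47 in CFAP20/CCNC-dKO, 3.54 in CFAP20-KO and 3.54 in WT. For MITF the MANE start lies at -197139 bp relative to the listed one, so the values of MITF describe an internal start of the gene and not its main one. For PAX6 it lies 6639 bp downstream, outside the window. With the promoter window at the MANE start wherever that lay within 4 kb, 20 members were occupied in WT. The share of all genes was not counted in that setting.

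**Figure D3:**
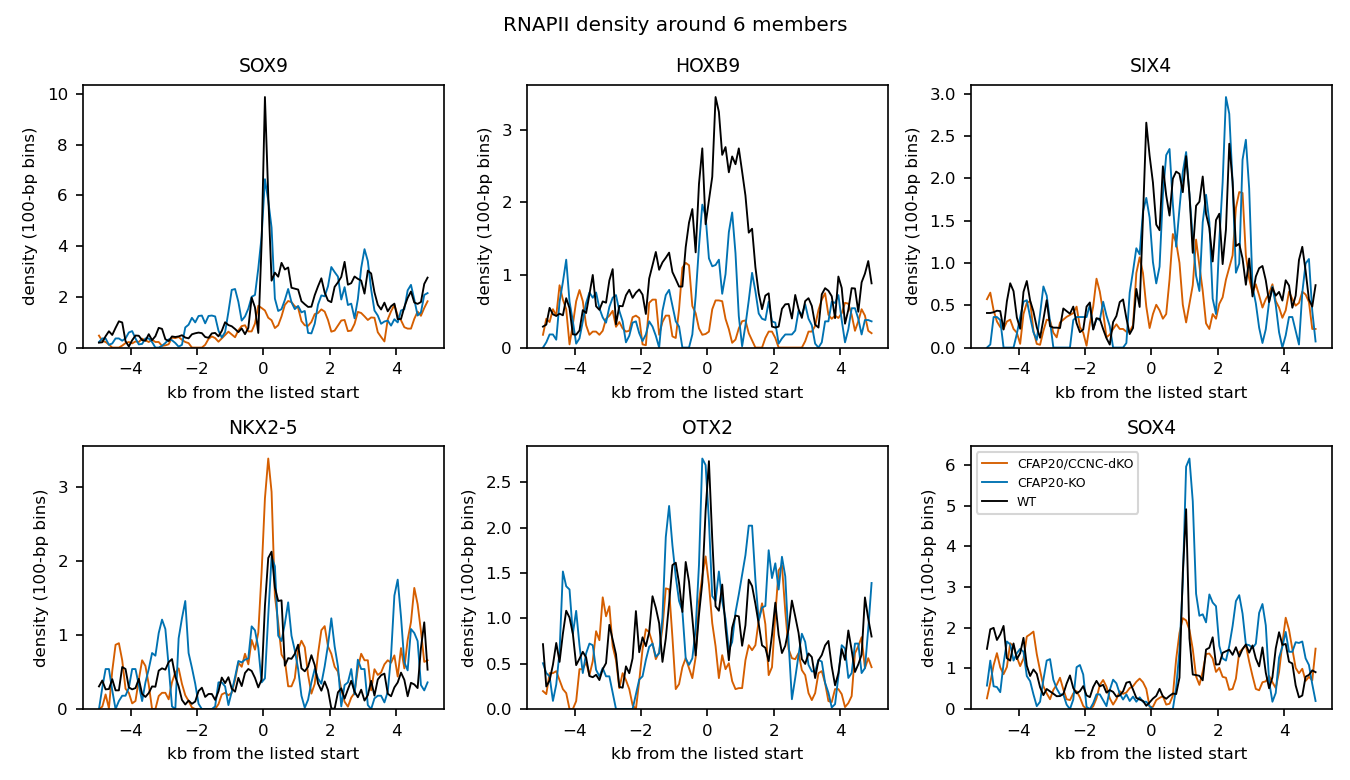
RNAPII density in 100-bp bins against distance from the listed start for SOX9, HOXB9, SIX4, NKX2-5, OTX2 and SOX4 in CFAP20/CCNC-dKO, CFAP20-KO and WT (1 library each; vertical axes differ). The peaks of SOX9 and HOXB9 are low in CFAP20/CCNC-dKO, that of NKX2-5 is highest there, and that of SOX4 lies about 1 kb past its listed start.

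The members differed from other genes in the sequence before their start, a feature the rule did not use. Over the 250 bases upstream, the ratio of observed to expected CG dinucleotides had a median of 0.678 in the members and 0.393 in all genes, and GC content had medians of 63.0% and 52.8%. Among promoters occupied in WT the ratio was alike, with a median of 0.825 in 19 members and 0.802 in 3140 genes. Among promoters not occupied in WT it was 0.622 in 49 members, beside 0.248 in 6627 genes. A ratio of at least 0.6 was found in 28 of these 49 members (57.1%) and in 17.7% of these genes. CG-rich promoters occupied in no library included TBX20 at 0.877, HOXC11 at 0.808 and LHX6 at 0.757, while TBX22 had 0.156, GATA1 0.158 and PAX4 0.102. The gene length of the members was also shorter, with a median of 6167 bp beside 17267 bp in all genes. The nearest origin in the selected origin list lay a median of 271 kb from the members and 411 kb from all genes, and PAX4, an islet factor, was the single member within 10 kb of one.

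In CFAP20/CCNC-dKO, RNAPII was much lower than in WT at HOXB9, SIX4 and SOX9, and lower at DLX1 and FOXJ2, while it was higher at NKX2-5. A promoter was called when its log2 ratio, with a pseudocount of 0.0424, lay at least 1.5-fold from the median of all 4891 genes whose mean promoter density over the libraries exceeded the median of all starts, 0.411. This filter was passed by 29 members and missed by 39, and NEUROD1 and NKX6-1 passed it although their WT density was below 0.411, so these 2 passed through their knockout values and had to be higher there. The filter acts in the other direction too. SIX4, TBX18 and FOXE1 lay under 0.411 in CFAP20/CCNC-dKO, and PAX2 and NKX6-1 in CFAP20-KO. They passed through their other libraries, which favours lower values in the library where they lay under it. In this comparison 4 members were called higher, against a background of 18.9% of all genes, and 8 were called lower, against 16.7%. As shares of the 29 these are 13.8% and 27.6%. The counting interval lay on one side of the median ratio of all genes, 0.844, for 3 of the higher members (10.3% of the 29, beside 10.4% of all genes that passed) and 5 of the lower ones (17.2%, beside 10.9%). The share of higher members with such an interval was thus that of all genes. With a window from -500 to 1000 bp, chosen to take in the wider coverage, 1 member was higher and 5 were lower. The matching shares of all genes were not counted in that window.

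HOXB9 had 0.168 times its WT density in CFAP20/CCNC-dKO, with an interval of 0.0744 to 0.328, from 8.62 equivalent fragments there and 275 in WT. SIX4 had 0.205 times its WT density (0.0866 to 0.412), from 7.90 equivalent fragments in CFAP20/CCNC-dKO, and SOX9 0.296 times (0.188 to 0.446). The intervals of these 3 do not reach the median ratio. DLX1 had 0.413 times (0.253 to 0.641) and FOXJ2 0.460 times (0.283 to 0.713) the WT density. In both knockouts the highest density near DLX1 stood upstream of its start. It was at -550 bp in CFAP20/CCNC-dKO, against -440 bp in CFAP20-KO and 50 bp in WT. The call of DLX1 was lost at its MANE start and with a window from -500 to 1000 bp. In that wider window DLX1 had 1.59 in CFAP20/CCNC-dKO, 1.82 in CFAP20-KO and 1.84 in WT. The calls of HOXB9 and SIX4 held under all 9 alternatives tried for this comparison, and that of SOX9 under 8, being lost when the promoter was divided by its own flanks. That of FOXJ2 was lost in that way and at 2-fold. The difference at SIX4 was smaller in other windows. From -500 to 1000 bp SIX4 had 0.701 in CFAP20/CCNC-dKO against 1.73 in WT, and at its MANE start 0.582 against 1.66.

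NKX2-5 had 1.57 times its WT density (1.09 to 2.24), and its call was lost with the window from -500 to 1000 bp, with its own flanks and at 2-fold. NEUROD1 and NKX6-1, which the filter let through for their knockout values, had 2.53 times (1.36 to 4.57) and 2.89 times (1.49 to 5.41). NKX6-1, an islet factor, rests on 16.6 equivalent fragments in CFAP20/CCNC-dKO and 30.9 in WT, and its call was lost with the wider window and at its MANE start. The remaining calls, higher POU3F2 and lower FOXA1, FOXL1 and TBX18, had intervals that included the median ratio. OTX2 had 0.602 times (0.360 to 0.958) and MITF 0.969 times (0.448 to 1.90) its WT density, and neither was called.

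The median log2 promoter ratio of CFAP20/CCNC-dKO against WT was -0.36 over the 29 members, beside -0.24 over all genes that passed. Of the 19 members occupied in WT, 16 (84.2%) were lower in CFAP20/CCNC-dKO than in WT, and of all 3140 genes occupied in WT 82.2% were. Across these 19 members the Pearson correlation of log2 promoter density between CFAP20/CCNC-dKO and WT was 0.23, and across the 3140 genes 0.71. Between CFAP20-KO and WT it was 0.73 for both sets. Over all 68 members the correlation of CFAP20/CCNC-dKO with WT was 0.71, beside 0.80 over all 9767 genes. That of CFAP20-KO with WT was 0.76 over the 68 members and 0.79 over all genes. These are correlations across genes, given as a description, and the sets of 19 and 3140 were chosen by their WT density.

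**Figure D4:**
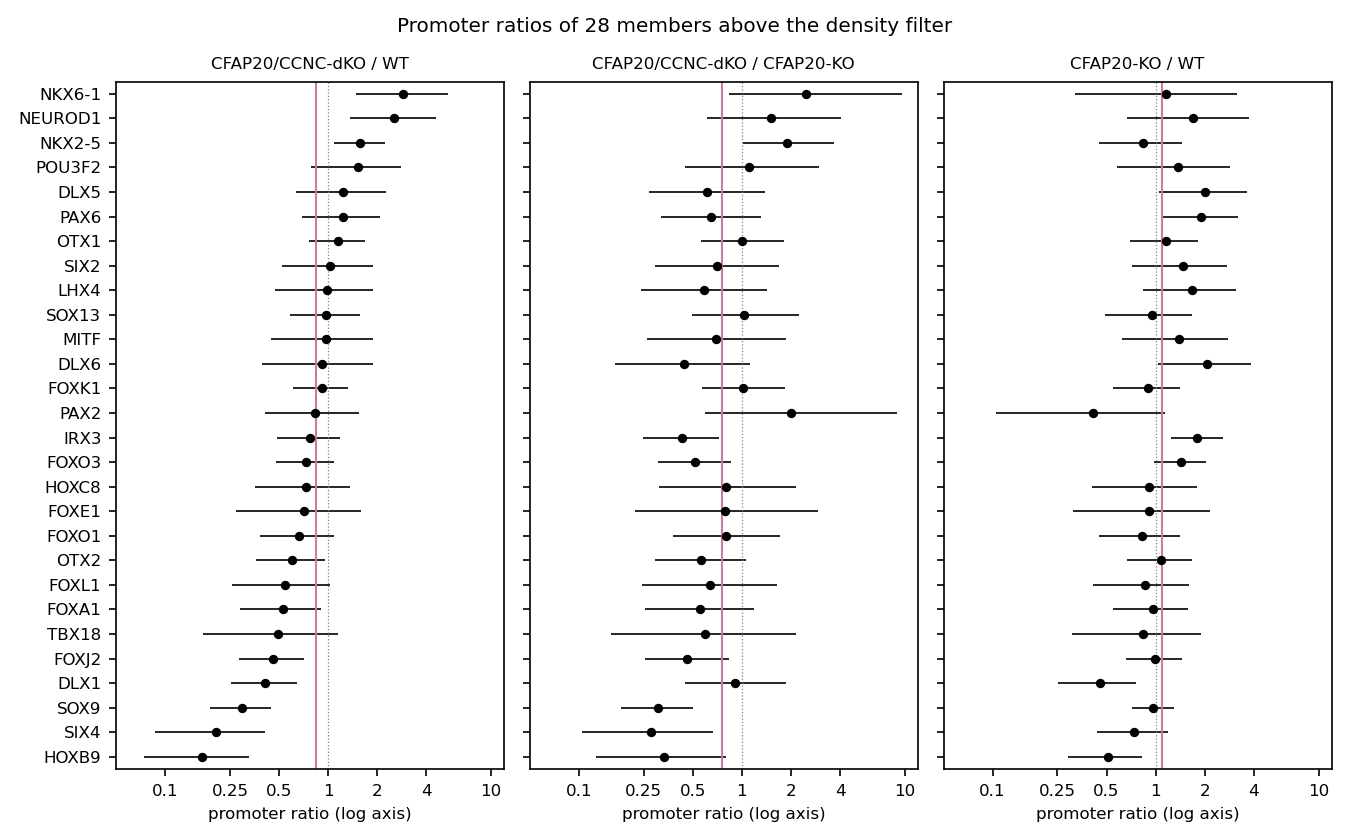
Promoter density ratios (log axis) of 28 of the 29 members that passed the filter, with 95% counting intervals, for CFAP20/CCNC-dKO over WT, CFAP20/CCNC-dKO over CFAP20-KO and CFAP20-KO over WT. The coloured line is the median ratio of all genes that passed (0.844, 0.757 and 1.10) and the dotted line is 1; HOXB9, SIX4 and SOX9 lie far to the left in both CFAP20/CCNC-dKO panels.

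CFAP20/CCNC-dKO and CFAP20-KO share the antibody that the labels name and differ by CCNC and by chromatin input. SIX4 and SOX9 were again far lower in CFAP20/CCNC-dKO, at 0.276 times (0.104 to 0.666) and 0.306 times (0.181 to 0.505) their CFAP20-KO density, and IRX3 had 0.428 times (0.248 to 0.727). NKX2-5 had 1.88 times (1.01 to 3.69) and NKX6-1 2.49 times (0.835 to 9.54) its CFAP20-KO density. The intervals of these 5 lay on one side of the median ratio of all genes, 0.757; the 2 higher ones are 6.90% of the 29, beside 5.85% of all genes, and the 3 lower ones 10.3%, beside 6.40%. NKX6-1 had passed the filter through its CFAP20/CCNC-dKO value alone, so it had to be higher there. With each promoter divided by its own flanks, SOX9 and IRX3 were not called in this comparison. In all, 4 members were called higher, against a background of 20.8% of all genes, and 6 lower, against 17.7%. These are 13.8% and 20.7% of the 29. Without centring on the median, 14 were lower. The median ratio of all genes was itself 0.757, and their share was not counted in that setting. The other calls were higher NEUROD1 and PAX2 and lower HOXB9, FOXJ2 and DLX6. HOXB9 had 0.331 times its CFAP20-KO density with an interval of 0.128 to 0.794 and few fragments in either library. The median log2 ratio was -0.49 over the 29 members and -0.40 over all genes that passed.

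CFAP20-KO was compared with the same WT library as above. IRX3 had more RNAPII in CFAP20-KO, and DLX1 and HOXB9 had less. Of the 19 members occupied in WT, 14 (73.7%) were lower in CFAP20-KO than in WT, and of all 3140 genes occupied in WT 46.9% were. Both sets were chosen by their density in this WT library, which favours lower values elsewhere, and these shares were taken without centring. Compared with WT, 4 members were called higher in CFAP20-KO, against a background of 15.8% of all genes, and 3 lower, against 16.6%, or 13.8% and 10.3% of the 29. The higher count was 1 with the window from -500 to 1000 bp and 7 with the window at the MANE start, and the matching shares of all genes were not counted. IRX3 had 1.81 times its WT density (1.24 to 2.58), DLX1 0.455 times (0.253 to 0.759) and HOXB9 0.507 times (0.291 to 0.827), and these 3 had intervals on one side of the median ratio of all genes, 1.10. They are 3.45% of the 29 for higher and 6.90% for lower, beside 7.97% and 7.71% of all genes. The call of IRX3 was lost with the wider window, with its own flanks and at 2-fold, that of DLX1 with the wider window and at its MANE start, and that of HOXB9 with its own flanks. The neighbouring DLX5 and DLX6, and PAX6, were called higher, at 2.01 times (1.05 to 3.64), 2.07 times (1.04 to 3.85) and 1.91 times (1.08 to 3.21), with intervals that included that median. PAX2 was called lower on 3.79 equivalent fragments in CFAP20-KO, and it passed the filter through its other libraries, which favours a lower value there. SOX9, FOXJ2 and OTX2 had 0.969 times (0.712 to 1.29), 0.993 times (0.659 to 1.45) and 1.08 times (0.667 to 1.66) their WT density, and their intervals leave room for changes up to those bounds. The median log2 ratio was -0.045 over the 29 members and 0.13 over all genes that passed, and that of the members turned to 0.090 with the wider window and to 0.13 with each promoter divided by its own flanks.

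The lower promoter density of SOX9 in CFAP20/CCNC-dKO extended into the gene. From 2000 to 5000 bp past the start, SOX9 had a density of 1.05 in CFAP20/CCNC-dKO, 1.92 in CFAP20-KO and 2.16 in WT, and CFAP20/CCNC-dKO had 0.485 times (0.385 to 0.603) the WT density there. HOXB9 had 0.290, 0.329 and 0.635, and both knockouts lay below WT, at 0.457 times (0.290 to 0.691) for CFAP20/CCNC-dKO and 0.517 times (0.303 to 0.831) for CFAP20-KO. SIX4 differed: its gene body had 0.732, 0.911 and 0.945, so that CFAP20/CCNC-dKO had 0.774 times (0.583 to 1.01) the WT density in the body but 0.205 times at the promoter. OTX1 was level at its listed start. At its MANE start, 773 bp downstream, its promoter density was 0.654 in CFAP20/CCNC-dKO, 1.21 in CFAP20-KO and 0.965 in WT. The gene body of OTX1 had 0.115, 0.503 and 0.345 in the same order. That was 0.333 times (0.155 to 0.634) the WT density in CFAP20/CCNC-dKO, from 9.77 equivalent fragments there. MITF had 0.257, 0.516 and 0.454, with 0.567 times (0.347 to 0.883). NKX2-5 was higher in both knockouts, at 0.631 in CFAP20/CCNC-dKO, 0.571 in CFAP20-KO and 0.326 in WT, but this gene is 3249 bp long and ends inside the window.

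Among the 18 members of at least 5000 bp that passed the filter, the median log2 gene body ratio was -0.33 for CFAP20/CCNC-dKO against WT, -0.31 for CFAP20/CCNC-dKO against CFAP20-KO and 0.13 for CFAP20-KO against WT. Over the 4395 genes of that length it was 0.036, -0.050 and 0.081. With a window from 1000 bp the member value for CFAP20/CCNC-dKO against WT was -0.16, and that of all genes was not taken. In the 13 members of that length occupied in WT, the median log2 ratio of promoter to gene body density was 1.00 in CFAP20/CCNC-dKO, 1.30 in CFAP20-KO and 1.42 in WT, beside 1.19, 1.59 and 1.65 in 2900 genes. The order of the 3 libraries was thus the same in the members as in all genes.

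The deposited windows around replication origins, mapped elsewhere by sequencing of Okazaki fragments, held 3 WT libraries and gave the only view of replicate spread. They covered the promoters and flanks of 12 members. FOXJ2 had a log2 promoter over flank density of 1.95, 2.23 and 1.83 in WT libraries 1 to 3, with a mean of 2.01 ± 0.20 (SD, n = 3). FOXO3 was the steadiest at 1.48 ± 0.09 (SD, n = 3), and TBX19, a pituitary factor without a peak, the least steady at -1.25 ± 1.19 (SD, n = 3). SOX13 stood at 1.53 ± 0.20 and FOXK1 at 1.36 ± 0.80 (SD, n = 3 each). The 6 members with a promoter occupied in the TSS data were above the flanks in all 3 WT libraries.

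SIX4 had 1.42, 0.66 and 1.52 in the 3 WT libraries (1.20 ± 0.47, SD, n = 3), and the same measure from the TSS windows was -0.34 in CFAP20/CCNC-dKO, against 1.15 in CFAP20-KO and 1.38 in WT. The CFAP20/CCNC-dKO value lay below all 3 WT libraries and the CFAP20-KO value within their range. From the TSS windows FOXJ2 had 1.25 in CFAP20/CCNC-dKO, against 2.25 in CFAP20-KO and 1.97 in WT, and its CFAP20/CCNC-dKO value also lay below all 3 WT libraries of the origin windows. FOXO3 had 0.82 in CFAP20/CCNC-dKO, against 1.75 in CFAP20-KO and 1.23 in WT, and its WT libraries in the origin windows had 1.38 to 1.54. For FOXO3 both the CFAP20/CCNC-dKO and the WT value of the TSS windows lay below that range, so it does not set CFAP20/CCNC-dKO apart. NKX2-5 had 2.06 in CFAP20/CCNC-dKO, against 0.88 in CFAP20-KO and 1.86 in WT, while its WT libraries in the origin windows had 2.05, 0.92 and 2.86 (1.94 ± 0.98, SD, n = 3). The spread between WT libraries at NKX2-5 was therefore wider than the difference between the knockouts. HOXB9, SOX9 and DLX1 lay outside these windows, so their differences have no such comparison. Over the 12 members the median of this measure was 0.81, 0.56 and 1.15 in the 3 WT libraries, beside 0.63, 0.61 and 1.01 over 1791 genes.

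**Figure D5:**
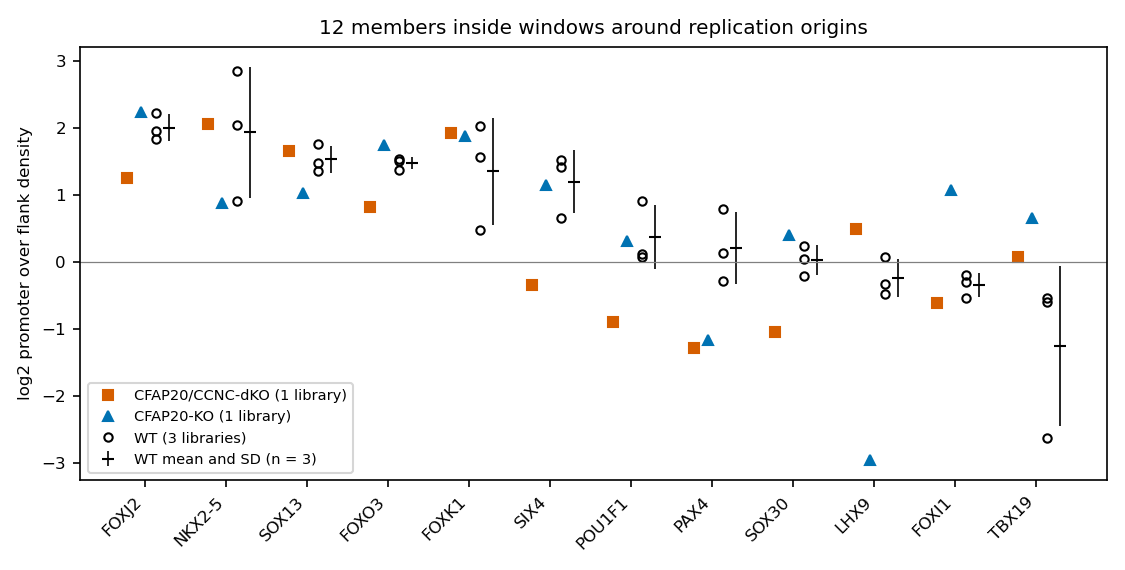
Log2 promoter over flank density of the 12 members inside origin windows in CFAP20/CCNC-dKO and CFAP20-KO (filled, 1 library each) and in the 3 WT libraries (open), with the WT mean and SD. The CFAP20/CCNC-dKO value of SIX4, -0.34, lies under all 3 WT values, and the WT values of NKX2-5 range from 0.92 to 2.86.

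Genes that act on or beside these factors were read from lists as well. Of 28 Polycomb genes, whose products silence developmental promoters, 8 were measured, and all 8 were occupied in all 3 libraries. Summed over the 8, promoter density was 12.8 in CFAP20/CCNC-dKO, 19.1 in CFAP20-KO and 18.5 in WT. PHF19 had 2.90, 3.28 and 3.46, and PCGF5 1.10, 2.38 and 3.10. PCGF5 and CBX6 were called lower in CFAP20/CCNC-dKO than in WT, PCGF5 at 0.354 times (0.218 to 0.546) and CBX6 at 0.464 times (0.274 to 0.743), and no Polycomb gene was called in CFAP20-KO against WT. Of all genes that passed, 16.7% were called lower in CFAP20/CCNC-dKO against WT. The median log2 ratio of the 8 Polycomb genes was -0.34 for CFAP20/CCNC-dKO against WT. It was -0.24 over all genes that passed and -0.43 over the 3140 genes occupied in WT, so these genes were not lowered more than other occupied ones. Of 11 TALE homeobox genes, a class that includes DNA-binding partners of HOX proteins, 3 were measured: PKNOX1 had 1.27, 1.98 and 2.76, MEIS3 0.428, 1.30 and 0.775, and TGIF1 0.468, 0.155 and 0.389. PKNOX1 was called lower in both knockouts than in WT. No gene of the Trithorax list was measured.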

How the data were processed

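RNAPII ChIP-seq signal was analysed as deposited. The submitters' processing notes name BWA 0.7.17 and STAR 2.7.7a as aligners, HOMER 4.8.2, SAMtools 1.11, R 4.0.5, Trim Galore 0.6.5 and FastQC 0.11.9; which tool made which file is not given in the sources used here. The deposited coverage signal around TSSs (10-bp bins within 5 kb, hg38) had been normalized to the spike-in, as the file names say. That around origins (200-bp bins within 100 kb) has an unstated normalization and was used as ratios within a library. Its bins ran along the nearest gene, where the WT promoter values of both files correlated best. The deposited BrU-seq score per gene has no stated scale, and 2 deposited columns with other per-sample values were left out.

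Windows were averaged with Python 3.11.15 and numpy 2.4.6. Coverage divided by the step and the isolated fragment length gave equivalent fragments, from which exact intervals follow; these cover counting error only. Multiples were called whole within 0.02 of a step. Origin-window ratios used a pseudocount of 0.1 and starts within 95 kb of an origin centre. The interval code was tested on simulated fragments. Start positions were compared with GENCODE 44, and bases came from the hg38 genome. Alternatives are given in the closing section.

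Members and lists were chosen with earlier results of these data known. Named were OTX2 and MITF, the member with the highest WT density per family, the 4 highest and 4 lowest ratios per comparison among members that passed the filter with an interval on one side of the median, the origin-window members of highest and lowest SD, and the 3 highest in WT per further list. Members named beyond this were chosen after their values were seen. A few genes and sequences that these rules name are not reported or drawn here but are counted in the totals. Nothing says that the WT libraries are separate cultures, so their spread may be technical.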

Additional observations from a re-analysis of the deposited data

How the results depend on the processing

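The count of 19 members occupied in WT stayed between 15 and 20 under the 7 alternatives tried. Some of these could not change it. Each member had a single listed start, so taking the first listed start altered no member. No member had an antisense, overlapping, intronic or pseudogene name to drop. POU2AF1, POU5F1B and FOXD4L5, left out in another setting, were not occupied in WT. Counts of called members were less stable. The matching shares of all genes were not counted under the alternatives, so the counts below do not tell members from other genes. Without the filter on low values, 14 members were higher and 20 lower in CFAP20/CCNC-dKO against WT, 18 and 23 in CFAP20/CCNC-dKO against CFAP20-KO, and 15 and 13 in CFAP20-KO against WT; this setting adds members with few fragments. With a filter on an occupied WT promoter alone, 5 were lower in CFAP20/CCNC-dKO against WT, 2 higher in CFAP20/CCNC-dKO against CFAP20-KO and 2 higher in CFAP20-KO against WT. With the wide window 1 was higher and 5 lower in CFAP20/CCNC-dKO against WT, and 1 higher in CFAP20-KO against WT. At 2-fold, 2 were higher and 4 lower in CFAP20/CCNC-dKO against WT, 3 lower in CFAP20/CCNC-dKO against CFAP20-KO and 0 higher in CFAP20-KO against WT. Division by the own flank left 4 lower in CFAP20/CCNC-dKO against WT, and no centring gave 14 lower in CFAP20/CCNC-dKO against CFAP20-KO. The median promoter log2 ratio of CFAP20-KO against WT reversed to 0.090 with the wide window and 0.13 with the own flank; the cause was not tested. With the window at the MANE start, an alternative chosen after seeing the data, 7 were higher in CFAP20-KO against WT. For CFAP20/CCNC-dKO against WT, the gene body median went from -0.33 to -0.16 with a window from 1000 bp and -0.18 without the filter. That of CFAP20-KO against WT went from 0.13 to 0.037 with the window from 1000 bp. All medians other than the reversed one moved by less than 0.29, which is the SD of a different measure, the 3 WT medians in origin windows. Their mean, 0.84, ranged from 0.69 to 0.98 when 1 WT library was left out.

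No paired analysis was possible because the groups share a single replicate number. In the knockouts a median member promoter holds under 10 equivalent fragments, so single-gene differences below about 2-fold mostly stay within counting error, and there is no replicate for any genotype difference around TSSs.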

Other observations

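PAX1, FOXA2 and PAX4 lie in regions where both knockouts had less signal than WT far beyond the promoter. The flanks of all starts within 5 Mb of PAX1 stood at 0.468 of the library's median in CFAP20/CCNC-dKO, 0.515 in CFAP20-KO and 0.923 in WT, and those around FOXA2, on the same chromosome 20, at 0.468, 0.534 and 0.910. Around PAX4, on chromosome 7, they stood at 0.563, 0.566 and 1.02. PAX1, FOXA2 and PAX4 were occupied in no library, and none of them passed the filter. Around PAX2 and NKX2-3, on chromosome 10, the flanks stood above the median in all 3 libraries, NKX2-3 at 1.62 in CFAP20/CCNC-dKO, 1.59 in CFAP20-KO and 1.63 in WT. The part of such regional levels in the promoter values was not tested.

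On the divergent side, from -1000 to -200 bp, the 19 members occupied in WT had a median density of 0.792 in CFAP20/CCNC-dKO, 0.968 in CFAP20-KO and 0.975 in WT, beside 0.659 and 0.836 in CFAP20/CCNC-dKO and CFAP20-KO and 0.703 in WT over the 3140 occupied genes.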
